A study of Homo sapiens with 12 samples.

Results

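HaCaT is a spontaneously immortalized human keratinocyte line, and the libraries compared here are 4 HaCaT derivatives exposed to hydrogen peroxide (H2O2) against the same 4 derivatives left untreated. They were chosen by their treatment label and make up 8 of the 12 libraries in the series. The H2O2 group holds 1 library each of shControl, shMLL1, shUTX and shNRF2 cells kept for 24 h in 100 µM H2O2, and the untreated group holds 1 library of each. The shControl cells carry a control hairpin and are labelled wild type, while the others carry a short hairpin RNA against MLL1 (also called KMT2A), UTX (KDM6A) or NRF2 (NFE2L2). All 8 were grown in serum-supplemented DMEM, and total RNA was sequenced as TruSeq RNA-seq libraries. The remaining 4 libraries, exposed to cerium oxide nanoparticles (CeO2), entered a single alternative fit. Each derivative therefore gave 1 pair, and its hairpin was the block of the comparison. The labels do not say whether a derivative is a clone or a pool, nor that the pairs came from separate cultures. With the hairpin as block, p-values measure the spread of the change between these 4 pairs. That spread may be technical, and it also holds any difference in response between the hairpins.

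Hydrogen peroxide enters cells partly through aquaporins, oxidizes cysteine thiols and, with iron, yields radicals that damage lipids, proteins and DNA. Cells remove it with catalase, peroxiredoxins and glutathione peroxidases, which draw on NADPH. In keratinocytes NRF2 is the main activator of genes for glutathione and NADPH supply, MLL1 writes the activating histone H3 lysine 4 methylation, and UTX removes the repressive methylation of lysine 27.

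Library totals ran from 5667417 to 7342021 counts with H2O2, against 5388335 to 7118843 counts untreated. Gene names were read only for entries in 5 stretches of GRCh38 and on the mitochondrial genome: chr5:218241-44820428, chr9:19375715-37801437, chr11:236546-842545, chr18:3247481-12344320, chr19:867630-6393981 and chrM. All 5 cytosolic ribosomal protein genes inside these stretches averaged 925.6 CPM or more (counts scaled to a common library total), whereas 58 of the 81 outside them had means below 1 CPM. The stretches and chrM hold 1587 of the 61498 entries, and 466 of these were among the 10056 entries with enough counts to be tested. The entries labelled with the hairpin targets lie outside the stretches and so do not check the labels: the NFE2L2 entry had 12, 1, 1 and 0 counts in the shControl, shMLL1, shUTX and shNRF2 libraries with H2O2, against 1, 1, 1 and 0 untreated. The KMT2A entry stood at 95.6 CPM in shMLL1 cells with H2O2 and 32.5 CPM in untreated shMLL1 cells, against 467 and 512 CPM in shControl cells. The KDM6A entry had 0 to 5 counts with H2O2 and 1 to 6 counts untreated. Of the keratinocyte markers that could be read, the desmosomal gene PKP3 had 1590 to 2556 CPM and the aquaporin gene AQP3 195 to 367 CPM across the 8 libraries. The noncoding RNA TINCR, also read as a keratinocyte marker, had only 6.33 to 65.1 CPM and was lowest in the shControl libraries. The melanocyte gene SLC45A2 and the B-cell gene CD72 did not exceed 1 count in any of the 8, and IL7R, listed as an immune marker, stood at 244 to 611 CPM. The keratin genes lie outside the stretches and were not read.

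No gene passed an adjusted p of 0.05 in the comparison of H2O2 with untreated cells (edgeR's quasi-likelihood test, Benjamini-Hochberg adjustment over 10056 entries, 0% called). The smallest adjusted p was 0.189 among the genes with readable names and 0.101 over all entries. At an unadjusted p under 0.05, 84 of the 466 readable entries passed, 23 higher and 61 lower with H2O2, beside 1750 of all 10056 (17.4%), of which 916 were higher (9.11%) and 834 lower (8.29%). In all 4 derivatives 32 readable entries were higher with H2O2 (6.87%, against 13.1% of all tested entries), and 99 were lower (21.2%, against 14%). The median log2 change was -0.10 over the readable entries and 0.01 over all entries. In bulk RNA, fewer cells making a transcript and less transcript per cell cannot be told apart.

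Log2 changes moved with transcript length, and the naming of genes did too. With a smooth trend in transcript length removed and the overall level of the readable genes kept, 20 readable entries were higher and 56 lower at an unadjusted p under 0.05, in place of 23 and 61, and the readable median was -0.08. A removal that also centred the readable genes (median 0.01) gave 38 higher and 18 lower, and 44 and 21 with a trend in GC content removed as well. That centring itself shifts the balance, so these counts do not show how much of the excess of lower entries goes with length. The trends were fitted on readable coding genes and removed from readable entries only. No entry passed the adjusted p in any of these fits, in which the other tested entries stayed uncorrected. The coding genes named below as higher have a median longest transcript of 7795 bases (10 genes), those named as lower 1806 bases (11 genes), and the 368 readable coding genes tested 3360.5 bases. All 24 named genes kept their direction in all 14 alternative settings tried. Their choice among entries that moved one way in every derivative made this likely, so it is not independent support. With the trend removed and the level kept, the log2 change was 0.37 for CPLANE1, 0.23 for ADAMTS12, 0.17 for SEMA5A, 0.18 for PDZD2, 0.13 for ABCA7 and 0.06 for TRIO, each below the value given further on by a factor of over 1.5. Of those named as lower, CIRBP, SUB1, GATD1 and TNFAIP8L1 then lay slightly further from 0 (-0.30, -0.35, -0.30 and -0.29). The others lay nearer to 0, among them MYL12A (-0.20), NDUFS6 (-0.26) and MICOS13 (-0.28). The removal that also centred the readable genes gave MYL12A -0.11, EXOSC3 -0.15 and IFT74 -0.14, values that include the shift from centring.

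Among signalling and matrix genes higher with H2O2 in all 4 derivatives, the one with the smallest p was CPLANE1, which encodes a planar cell polarity effector needed to build cilia. CPLANE1 (chr5:37106228-37249428) had 66.2, 45.2, 47.9 and 61.7 CPM with H2O2 in shControl, shMLL1, shUTX and shNRF2 cells, against 35.7, 29.1, 33.0 and 51.3 CPM untreated. Every derivative stood higher with H2O2, most in shControl and least in shNRF2, and the groups overlapped because untreated shNRF2 cells exceeded 2 of the H2O2 libraries. Its log2 change was 0.58 ± 0.12 (SE, 4 pairs; edgeR adjusted p = 0.189), and the ratio within each pair was 1.85, 1.55, 1.45 and 1.20, with exact 95% counting intervals of 1.58 to 2.18, 1.29 to 1.87, 1.20 to 1.76 and 1.04 to 1.39. These intervals cover counting error only.

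PTGER4 encodes the EP4 receptor for prostaglandin E2, a lipid signal that keratinocytes release when injured. It had 46.0, 207, 47.4 and 70.2 CPM with H2O2 in shControl, shMLL1, shUTX and shNRF2 cells, against 44.6, 131, 36.8 and 57.7 CPM untreated. The shMLL1 cells carried the highest level in both groups and the widest gap, while the shControl pair differed by little (log2 change 0.35 ± 0.11, edgeR adjusted p = 0.204). PTGER4 overlaps TTC33, and no source used here says whether reads were counted by strand.

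ADAMTS12, a secreted metalloprotease of the extracellular matrix, had 236, 34.2, 260 and 163 CPM with H2O2 in the same order of derivatives, against 154, 30.7, 197 and 131 CPM untreated. The shMLL1 libraries were low in both groups, and each pair was higher with H2O2 (0.39 ± 0.09, edgeR adjusted p = 0.189). SEMA5A, a membrane semaphorin that guides growing axons, had 227, 45.5, 118 and 227 CPM with H2O2, against 162, 31.4, 85.0 and 213 CPM untreated. Its shMLL1 pair was again the lowest, and the shNRF2 pair differed least (0.39 ± 0.10). SEMA5A overlaps the antisense gene SEMA5A-AS1.

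PDZD2, a protein with several PDZ domains, had 200 CPM (shControl), 167 CPM (shMLL1), 156 CPM (shUTX) and 287 CPM (shNRF2) with H2O2, against 125, 114, 138 and 252 CPM untreated. TRIO, a guanine nucleotide exchange factor, had 664, 377, 705 and 521 CPM with H2O2, against 475, 300, 659 and 468 CPM untreated. All pairs of both genes were higher with H2O2, and the shControl pair differed most on the log2 scale for each (PDZD2 0.40 ± 0.10, TRIO 0.27 ± 0.08).

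CDKN2B encodes p15, an inhibitor of the cyclin D kinases CDK4 and CDK6 that holds cells before S phase. It had 98.0, 40.6, 172 and 91.3 CPM with H2O2 in shControl, shMLL1, shUTX and shNRF2 cells, against 88.7, 36.4, 124 and 73.3 CPM untreated. The shUTX cells were highest and the shMLL1 cells lowest in both groups, so the groups overlapped although all 4 pairs pointed the same way (0.28 ± 0.09, edgeR adjusted p = 0.209). CDKN2B overlaps the antisense gene CDKN2B-AS1.

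Lipid enzymes were represented by ACER2, an alkaline ceramidase of the Golgi that releases sphingosine, and by ABCA7, a lipid transporter of the ABC family. ACER2 had 15.2, 25.2, 35.6 and 23.4 CPM with H2O2, against 9.82, 19.3, 26.6 and 20.1 CPM untreated. ABCA7 had 107, 104, 68.2 and 131 CPM with H2O2, against 99.3, 84.8, 55.5 and 107 CPM untreated. Both were higher with H2O2 in every derivative, with overlapping groups (ACER2 0.40 ± 0.13, ABCA7 0.24 ± 0.08).

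The other entries named as higher were CLIC4P1, OXCT1-AS1 and CBARP. CLIC4P1, a pseudogene that may share reads with its parent gene CLIC4, had 43.5, 25.9, 42.4 and 47.2 CPM with H2O2, against 18.9, 7.13, 34.4 and 39.1 CPM untreated (0.83 ± 0.22). CLIC4P1 overlaps LINC01239 on the same strand. OXCT1-AS1, antisense to the ketone-body enzyme gene OXCT1, had 8.51 to 11.6 CPM with H2O2 and 4.83 to 9.08 CPM untreated (0.50 ± 0.18). CBARP, a regulator of voltage-gated calcium channels that overlaps STK11, had 16.2, 16.7, 16.7 and 20.2 CPM with H2O2, against 13.7, 15.5, 11.1 and 8.52 CPM untreated (0.53 ± 0.19). CBARP alone of the 12 named as higher had every H2O2 library above every untreated one, as 3 readable entries did (0.644%, beside 1.58% of all tested entries).

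**Figure D1:**
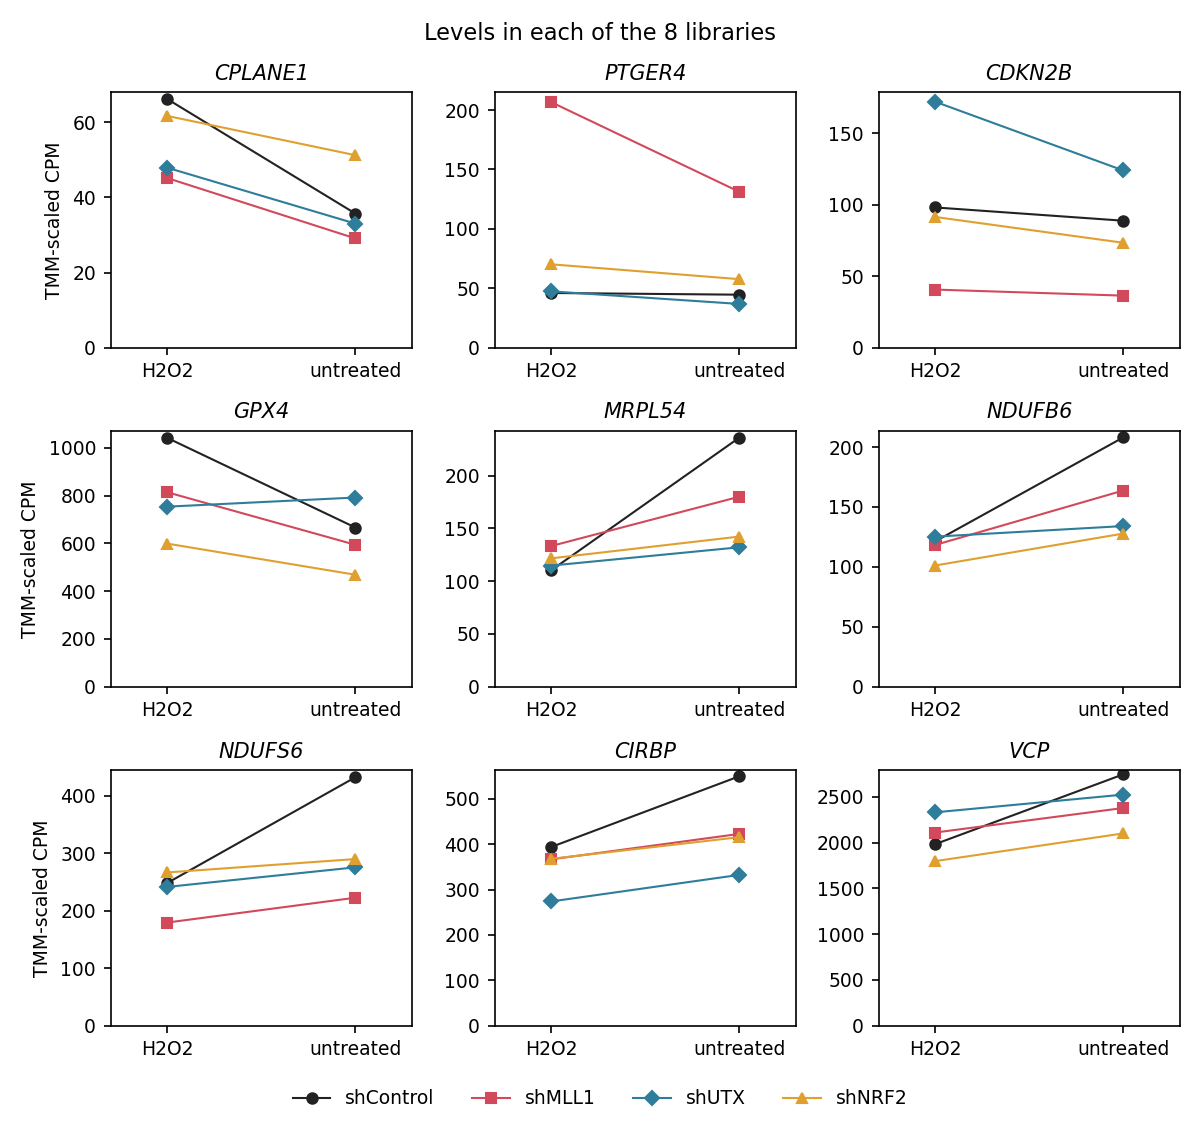
Level of 9 genes in TMM-scaled CPM (y axis, from 0) with H2O2 and untreated (x axis), 1 point per library and a line joining the 2 libraries of each derivative. All 4 lines stand higher with H2O2 for CPLANE1, PTGER4 and CDKN2B and lower for MRPL54, NDUFB6, NDUFS6, CIRBP and VCP, while the shUTX pair of GPX4 runs against the other 3.

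Some of the genes named as lower with H2O2 encode mitochondrial proteins, among them NDUFB6, which had the smallest p of those named as lower. NDUFB6, an accessory subunit of respiratory complex I, had 121, 118, 125 and 101 CPM with H2O2 in shControl, shMLL1, shUTX and shNRF2 cells, against 208, 164, 134 and 128 CPM untreated. Every H2O2 library was below every untreated one, as was so for 6 readable entries (1.29%, beside 1.47% of all tested entries), and the log2 change was -0.42 ± 0.11 (edgeR adjusted p = 0.189). NDUFB6 overlaps SMIM27. NDUFS6, a complex I subunit next to the iron-sulfur clusters, had 248, 179, 242 and 267 CPM with H2O2, against 432, 223, 276 and 290 CPM untreated, with untreated shControl far above the rest (-0.36 ± 0.11).

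MRPL54, a protein of the large mitochondrial ribosomal subunit, had 110, 133, 115 and 122 CPM with H2O2, against 236, 180, 132 and 142 CPM untreated. The 4 H2O2 libraries lay close together, whereas the untreated ones spread widely with shControl at the top (-0.49 ± 0.14, edgeR adjusted p = 0.189). Its ratio of H2O2 to untreated was 0.467 in shControl cells, 0.740 in shMLL1, 0.869 in shUTX and 0.855 in shNRF2 cells. MICOS13, part of the complex that shapes the cristae, had 134, 133, 120 and 139 CPM with H2O2, against 250, 166, 134 and 150 CPM untreated (-0.38 ± 0.12). It overlaps RPL36 and HSD11B1L.

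RNA-handling genes named as lower had smaller p-values than NDUFS6 and MICOS13. CIRBP, an RNA-binding protein induced by cold and other mild stress, had 394, 366, 274 and 368 CPM with H2O2, against 550, 423, 332 and 415 CPM untreated (-0.29 ± 0.08, edgeR adjusted p = 0.189). All 4 pairs were lower, and the shUTX libraries were lowest in both groups. EXOSC3, a cap subunit of the RNA exosome that degrades RNA, had 155, 161, 167 and 130 CPM with H2O2, against 209, 213, 201 and 139 CPM untreated (-0.30 ± 0.08). SUB1, the transcriptional coactivator PC4, had 442, 330, 484 and 429 CPM with H2O2, against 678, 409, 555 and 475 CPM untreated (-0.32 ± 0.09). In both genes the shControl pair differed most and the shNRF2 pair least. CIRBP overlaps CIRBP-AS1, and EXOSC3 overlaps DCAF10 and TRMT10B.

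The remaining named entries were IFT74, an intraflagellar transport protein of cilia, MYL12A, a regulatory light chain of non-muscle myosin, TNFAIP8L1, GATD1 and the pseudogene SNRPEP4. IFT74 had 94.4, 74.3, 41.5 and 79.5 CPM with H2O2, against 110, 96.1, 51.5 and 89.7 CPM untreated (-0.27 ± 0.09). MYL12A had 150, 139, 170 and 142 CPM with H2O2, against 223, 152, 204 and 159 CPM untreated (-0.28 ± 0.09). TNFAIP8L1 and GATD1 were lower by a similar amount (-0.27 ± 0.09 and -0.26 ± 0.08), with overlapping groups. SNRPEP4, which lies inside TINCR on the same strand and may share reads with it or with the splicing gene SNRPE, had 23.6 to 30.04 CPM with H2O2 and 33.2 to 41.0 CPM untreated, without overlap (-0.49 ± 0.13).

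**Figure D2:**
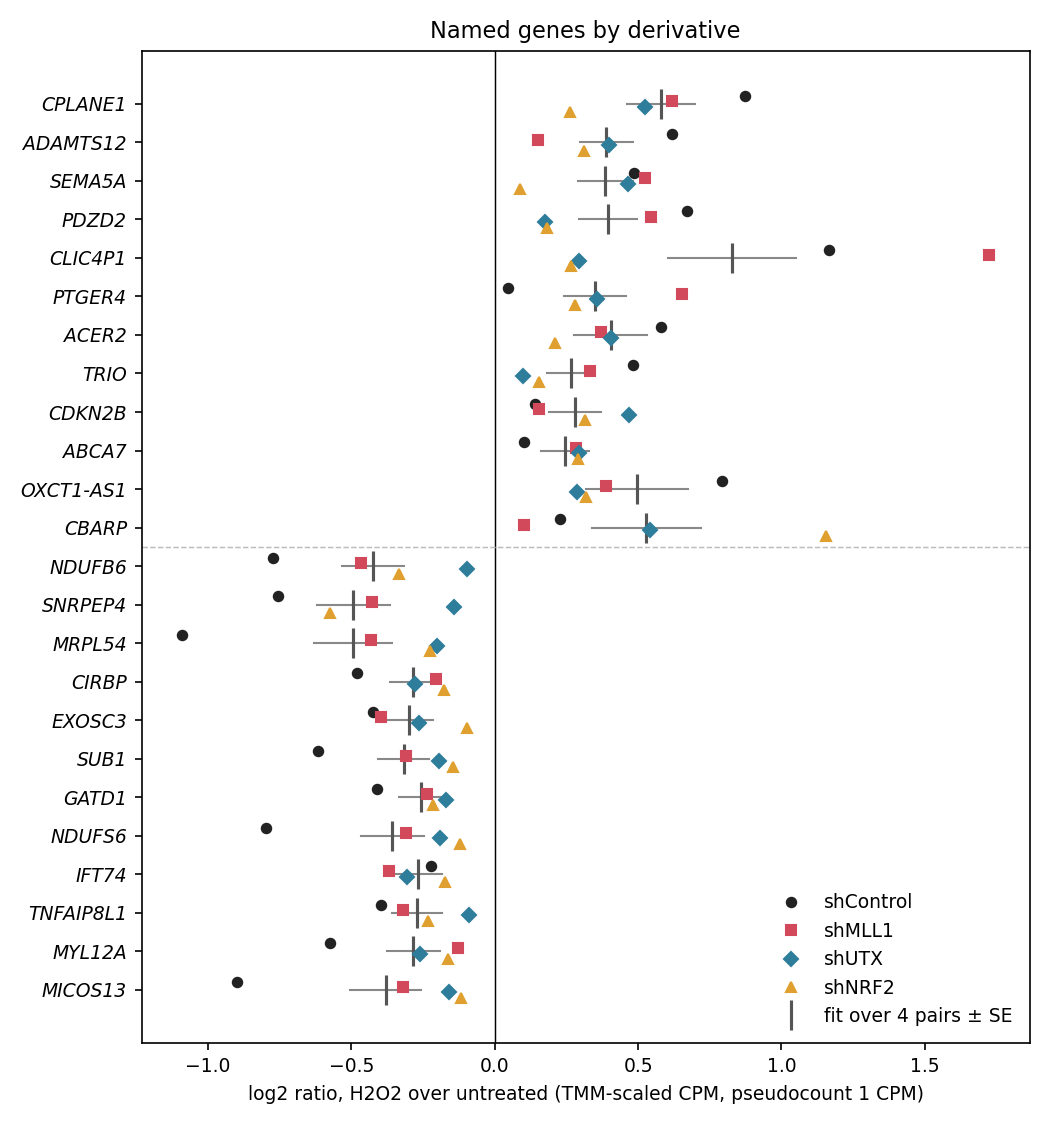
Log2 change of the 24 named entries, H2O2 over untreated, with a coloured symbol for each derivative (pseudocount 1 CPM) and a vertical tick with a horizontal bar for the fitted value ± SE. The 12 entries named as higher lie between 0.24 and 0.83 and the 12 named as lower between -0.49 and -0.26, and none of their adjusted p-values was below 0.189.

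The 8 nuclear genes for respiratory chain subunits all had log2 changes below 0 (median -0.21), with 2 lower and 0 higher at an unadjusted p under 0.05, NDUFB6 and NDUFS6. At that p 8.29% of all tested entries and 13.1% of the readable ones were lower. The readable entries had a median of -0.10 themselves, and their share below 0 was not counted. This gene list and those below were chosen with earlier results of these data known. The median of the 8 genes was -0.77 in the shControl pair and -0.25 in the shMLL1 pair, against 0.00 in shUTX and 0.12 in shNRF2 cells. All 11 genes for mitochondrial ribosome, import and quality control were also below 0 (median -0.16), with 4 lower, MRPL54, MICOS13, the inner-membrane import chaperone gene TIMM13 (-0.35 ± 0.12) and MRPL36 (-0.25 ± 0.11). After removal of the length trend with the level kept, the medians of these groups were -0.15 and -0.11. TIMM13 overlaps LMNB2 and TMPRSS9.

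The 7 complex I subunits of the mitochondrial genome itself centred on a log2 change of 0.08 (median), 5 of them above 0. MT-ND6, the subunit encoded on the light strand, was the only one at an unadjusted p under 0.05 (-0.26 ± 0.10) and was lower in 3 pairs. MT-ND3 was also below 0 (-0.16 ± 0.08), and it was lower in all 4 pairs. The 8 listed transcripts for the other proteins and the ribosomal RNAs of the mitochondrial genome were all below 0 (median -0.12), and none of them reached that p. The median over the readable entries was -0.10. Mitochondrial transcripts took 10.0%, 8.18%, 8.72% and 8.83% of counts with H2O2 in shControl, shMLL1, shUTX and shNRF2 cells, against 9.30%, 8.99%, 8.31% and 8.91% untreated. The share was higher in 2 of 4 pairs, and its mean difference of 0.0558 percentage points was within the spread between pairs (two-sided exact sign-flip permutation test, p = 1, smallest possible with 4 pairs 0.13).

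Redox genes had no single direction. GPX4, the selenoenzyme that reduces lipid hydroperoxides in membranes, had 1042, 814, 753 and 599 CPM with H2O2, against 666, 594, 792 and 469 CPM untreated. It was higher in shControl, shMLL1 and shNRF2 cells and slightly lower in shUTX cells (0.35 ± 0.11, edgeR adjusted p = 0.204). SELENOP, a secreted selenium carrier, had only 9, 7, 3 and 18 counts with H2O2, against 11, 10, 6 and 41 untreated, so its log2 change of -0.73 ± 0.31 rests on few reads. TALDO1, an enzyme of the pentose phosphate pathway that is linked to NADPH supply, had 1259, 1295, 1317 and 1048 CPM with H2O2, against 1797, 1516, 1313 and 1095 CPM untreated (-0.20 ± 0.09). The shControl pair carried most of that gap, and the shUTX pair had none. NADK2, which makes mitochondrial NADP, and ALKBH7, a mitochondrial dioxygenase, were lower at an unadjusted p under 0.05 (-0.26 ± 0.10 and -0.36 ± 0.15), and of the 8 redox genes tested 1 was higher and 3 lower at that p (median -0.16). Of the readable entries 4.94% were higher and 13.1% lower at that p, beside 9.11% and 8.29% of all tested entries.

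Protein quality control genes leaned lower in every derivative. Of 15 tested, 6 were lower and 0 higher at an unadjusted p under 0.05, and 10 were lower in all 4 pairs, beside 14% of all tested and 21.2% of readable entries lower in all 4. At the unadjusted p, 8.29% of all tested and 13.1% of readable entries were lower. The list was chosen with earlier results of these data known, so its excess over these shares is not independent support. The group's median log2 change was -0.16, with -0.25 in shControl, -0.17 in shMLL1, -0.10 in shUTX and -0.11 in shNRF2 cells, and it was -0.21 after removal of the length trend with the level kept. VCP, the ATPase that extracts ubiquitinated proteins from complexes and membranes, had 1984, 2111, 2332 and 1799 CPM with H2O2, against 2747, 2379, 2526 and 2102 CPM untreated (-0.25 ± 0.08, edgeR adjusted p = 0.209). Each pair was lower, though untreated shNRF2 cells lay below 2 of the H2O2 libraries, so the groups overlapped. PSMD13, a subunit of the proteasome lid, UBXN6, a VCP cofactor, and UBE2R2, a ubiquitin-conjugating enzyme, stood at -0.27 ± 0.09, -0.24 ± 0.08 and -0.19 ± 0.07.

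Ribosome and RNA synthesis genes also had negative medians, beside -0.10 over the readable entries. Of all tested entries 8.29% were lower at an unadjusted p under 0.05, and of readable entries 13.1%. Of 9 cytosolic ribosome and assembly genes, 4 were lower at an unadjusted p under 0.05, BRIX1 (-0.21 ± 0.08), RPS6 (-0.21 ± 0.09), RPL36 (-0.28 ± 0.12) and RPL37 (-0.21 ± 0.09), and the group median of -0.21 was -0.17 after removal of the length trend with the level kept. By derivative that median was -0.42 in shControl, -0.28 in shMLL1, -0.07 in shUTX and 0.07 in shNRF2 cells. Of 14 RNA polymerase, Mediator and splicing genes, 5 were lower at that p. Among them were EXOSC3, POLR2L, a subunit shared by the nuclear RNA polymerases (-0.34 ± 0.12), and DAZAP1, an RNA-binding splicing regulator. DAZAP1 had 1198, 1179, 1206 and 1154 CPM with H2O2, against 1541, 1407, 1304 and 1208 CPM untreated, without overlap (-0.20 ± 0.08).

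**Figure D3:**
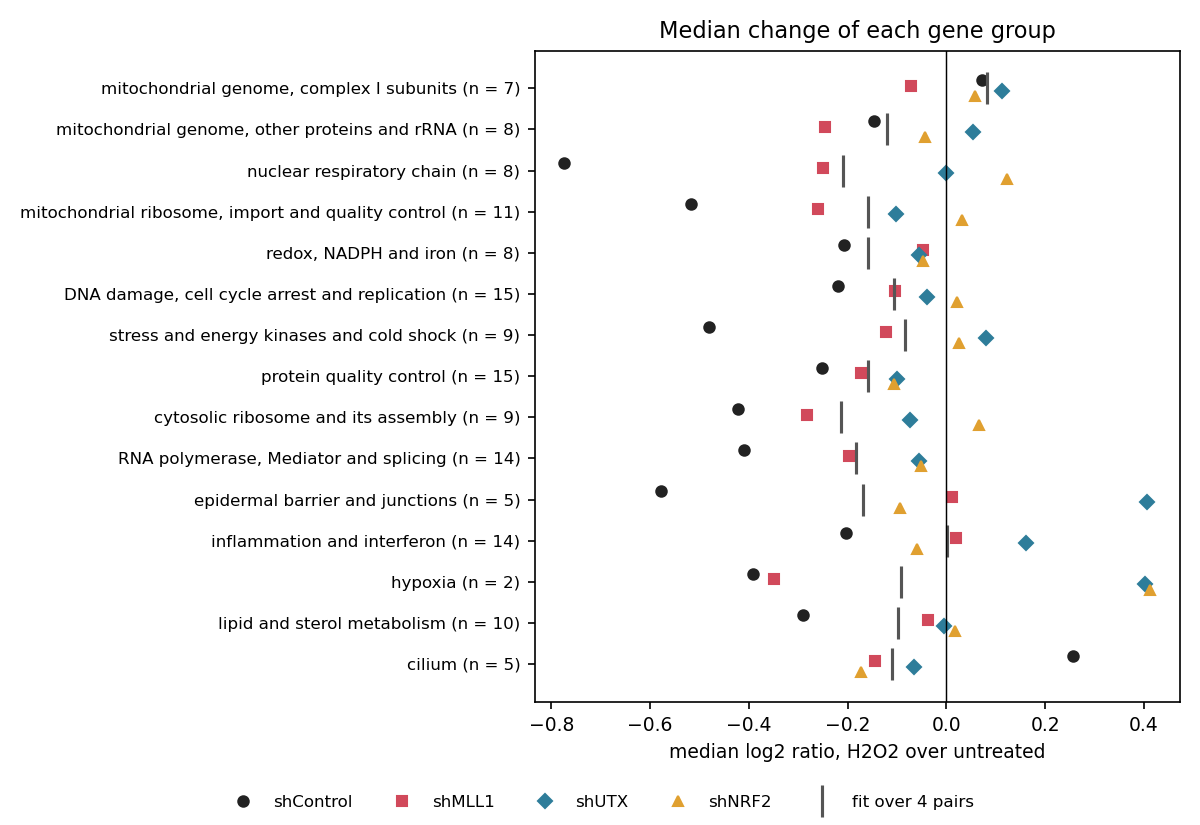
Median log2 change of H2O2 over untreated (x axis) in each of 15 gene groups (rows, n = genes tested), with a coloured symbol per derivative and a vertical bar for the median of the fit over the 4 pairs. Cytosolic ribosome, nuclear respiratory chain and RNA polymerase genes have the lowest fitted medians (-0.21, -0.21 and -0.18), and the complex I subunits of the mitochondrial genome the highest, 0.08. After removal of the length trend with the level kept, which is not drawn, protein quality control (-0.21), cilium (-0.20) and redox genes (-0.19) had the lowest medians.

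Of 15 DNA damage and cell cycle genes tested, 1, CDKN2B, was higher and 0 were lower at an unadjusted p under 0.05 (median -0.11). Beside this, 4.94% of readable entries were higher and 13.1% lower, and 9.11% and 8.29% of all tested entries. TERT, the catalytic subunit of telomerase, had 12.9, 18.6, 21.7 and 17.9 CPM with H2O2, against 11.9, 15.1, 19.6 and 11.5 CPM untreated. All 4 pairs were higher with overlapping groups, and the log2 change of 0.30 ± 0.15 did not reach an unadjusted p under 0.05 (0.0629 by edgeR). GADD45B, a stress-induced growth arrest gene, had 69.4, 65.5, 75.7 and 84.2 CPM with H2O2, against 97.6, 64.2, 53.8 and 85.6 CPM untreated, with no shared direction (-0.01 ± 0.14). Among 9 stress kinase and cold shock genes 2 were lower, CIRBP and the small GTPase gene HRAS. HRAS had 254, 338, 239 and 255 CPM with H2O2, against 440, 441, 243 and 271 CPM untreated, with the gap in the shControl and shMLL1 pairs (-0.32 ± 0.12).

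Epidermal genes gave 1 higher, ACER2, and 1 lower, AQP3, at an unadjusted p under 0.05 among 5 tested. Among readable entries 4.94% were higher and 13.1% lower at that p, and among all tested entries 9.11% and 8.29%. AQP3 encodes an aquaporin that carries glycerol, water and H2O2 (-0.25 ± 0.11). TINCR, a noncoding RNA of epidermal differentiation, had 6.33, 27.4, 49.5 and 60.9 CPM with H2O2, against 7.02, 23.1, 29.6 and 65.1 CPM untreated. It differed far more between derivatives than between treatments (0.21 ± 0.15). Of 14 inflammation and interferon genes 1 was higher, PTGER4, and 1 lower, SIGIRR, a negative regulator of interleukin-1 receptor signalling (-0.32 ± 0.11), with a group median of 0.00.

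The hypoxia gene CA9, a carbonic anhydrase, had 44.5, 1.69, 0.868 and 5.86 CPM with H2O2, against 59.6, 2.71, 0.566 and 3.77 CPM untreated. Its pairs split 2 against 2, and the shControl cells held most of it in both groups (-0.14 ± 0.23). Neither CA9 nor MIR210HG, the 2 hypoxia genes tested, reached an unadjusted p under 0.05. None of the 10 genes on the lipid and sterol list, which does not hold ACER2 or ABCA7, reached an unadjusted p under 0.05 (median -0.10). In the cilium group, CPLANE1 and IFT74 lay on opposite sides, and the other 3 of 5 tested were between -0.17 and -0.04.

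The log2 change depended on transcript length in 2 of the 4 derivatives. Across 368 readable coding genes, Spearman's rho between log2 change and the longest annotated transcript was 0.51 in the shControl pair and 0.46 in the shMLL1 pair, but 0.06 in the shUTX and -0.10 in the shNRF2 pair. Genes are not independent replicates, and these values describe the libraries. In the 92 genes with the shortest transcripts (207 to 2124 bases) the median log2 change was -0.51 in shControl, -0.22 in shMLL1, -0.01 in shUTX and 0.02 in shNRF2 cells. In the 92 with the longest (4741 to 15633 bases) it was 0.00, 0.05, 0.01 and -0.04. At an unadjusted p under 0.05 the shortest 92 held 2 higher and 27 lower genes, and the longest 92 held 10 higher and 4 lower. Of all 368 genes 5.71% were higher and 15.2% lower at that p, beside 9.11% and 8.29% of all tested entries.

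**Figure D4:**
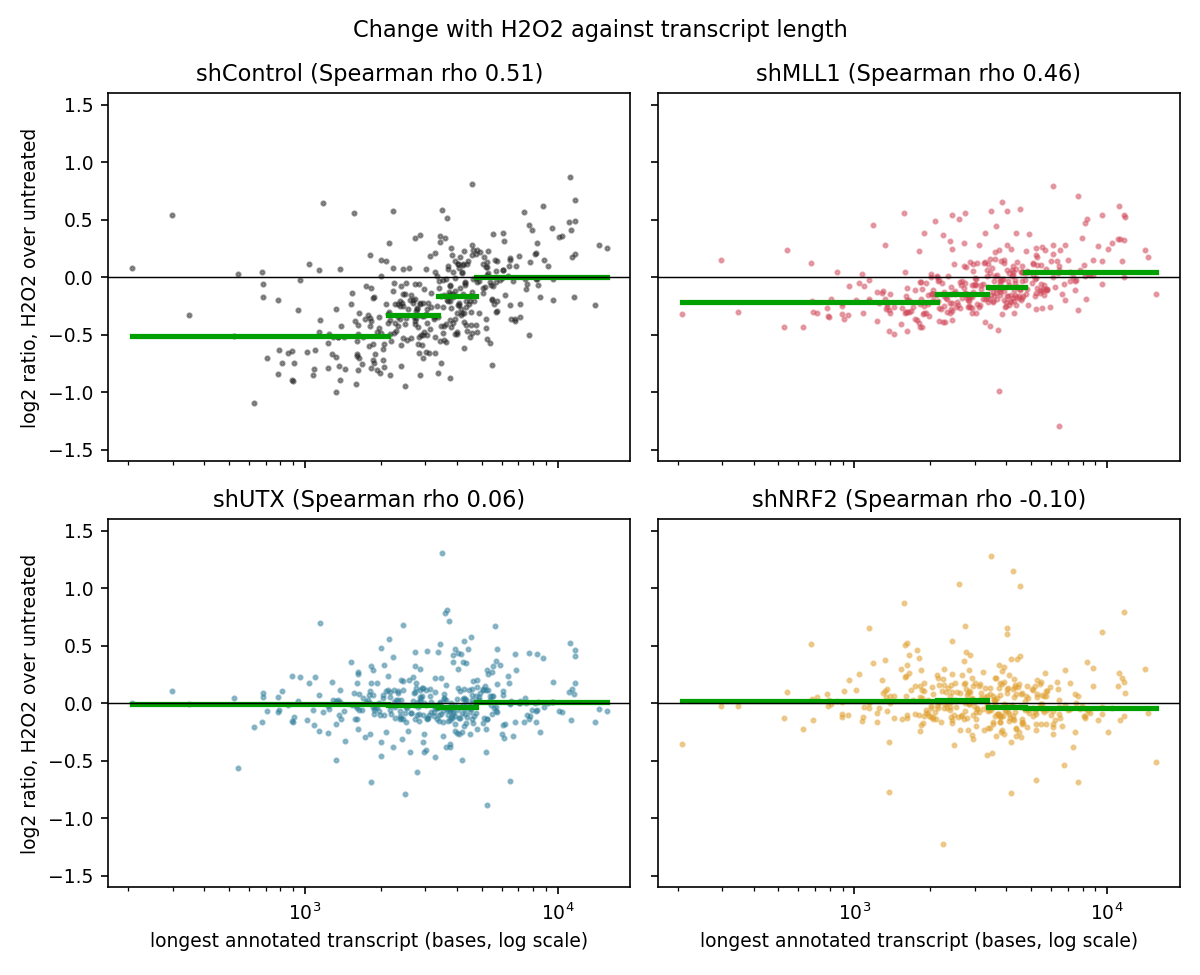
Log2 change of H2O2 over untreated (y axis) against the length of the longest annotated transcript (x axis, log scale) for 368 coding genes in each derivative, with green bars for the medians of 4 length classes of 92 genes. The points slope upward in the shControl and shMLL1 panels (rho 0.51 and 0.46) and lie flat in the shUTX and shNRF2 panels (0.06 and -0.10).

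The short-transcript difference stood in untreated libraries. Against the mean of all 8, the 92 genes with the shortest transcripts had a median log2 deviation of -0.07, -0.09, -0.14 and -0.04 with H2O2 in shControl, shMLL1, shUTX and shNRF2 cells, and of 0.45, 0.13, -0.13 and -0.05 untreated. The untreated shControl library thus stood apart in its short transcripts, with untreated shMLL1 next and the 4 H2O2 libraries close to each other. The part of this in the results was not tested beyond the fits without the trend and without each pair. GC content moved with the change too, in opposite directions: rho was -0.37 in shControl and -0.18 in shMLL1 cells, and 0.28 in shUTX and 0.40 in shNRF2 cells.

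**Figure D5:**
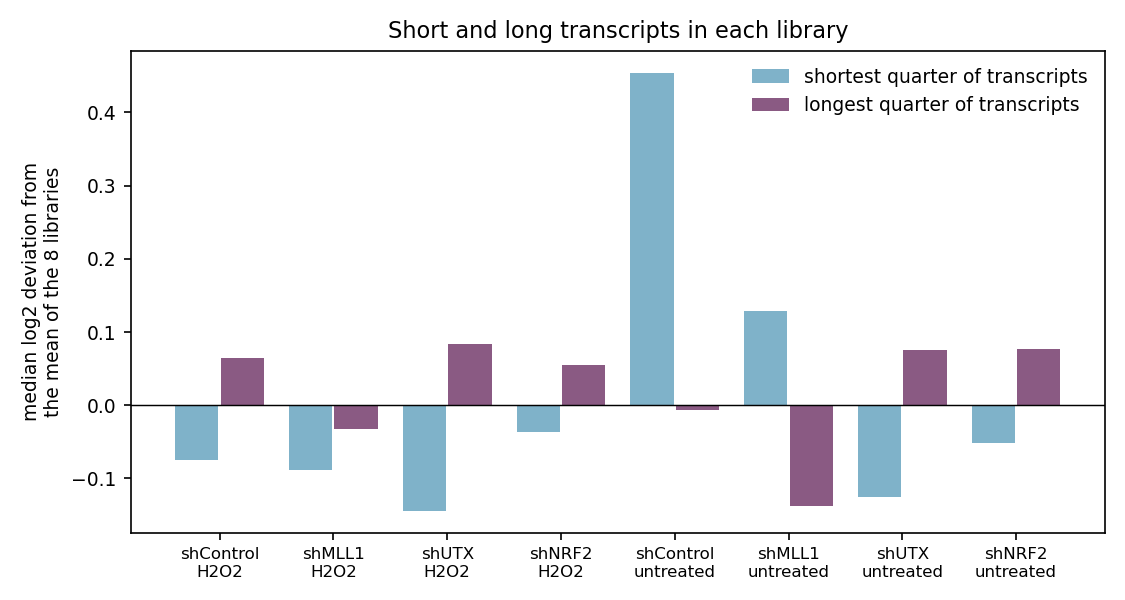
Median log2 deviation from the mean of the 8 libraries (y axis) for the 92 genes with the shortest and the 92 with the longest transcripts in each library, H2O2 libraries on the left. The bar for short transcripts reaches 0.45 in untreated shControl and 0.13 in untreated shMLL1, and lies at or below -0.04 in the other 6 libraries.

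Leaving out the shControl pair gave calls. Without it, 12 readable genes passed an adjusted p of 0.05 by edgeR (165 of all 10134 entries tested, 1.63%), 9 higher and 3 lower. Of those, 8 are named above: PTGER4 (0.45 ± 0.09, adjusted p = 0.00413), CPLANE1 (0.46 ± 0.11, adjusted p = 0.0175), CLIC4P1, CDKN2B, ADAMTS12 and PDZD2 were higher, and NDUFB6 (-0.31 ± 0.08, adjusted p = 0.0391) and MRPL54 (-0.30 ± 0.08, adjusted p = 0.0400) lower in the remaining 3 derivatives. The other 4 were picked out after their values were seen. The named genes were chosen by p over pairs that include these 3, so the overlap of 8 is not independent support.

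CRACR2B, a regulator of store-operated calcium entry, had 21.7, 28.8 and 31.1 CPM with H2O2 in shMLL1, shUTX and shNRF2 cells, against 14.5, 17.6 and 21.1 CPM untreated (0.61 ± 0.14). In shControl cells it stood at 16.4 CPM with H2O2 and 19.6 CPM untreated. PNPLA2, the adipose triglyceride lipase, had 223, 255 and 260 CPM with H2O2 in the same 3 derivatives, against 208, 187 and 201 CPM untreated (0.30 ± 0.08), while in shControl cells it had 175 CPM with H2O2 and 227 CPM untreated. Both genes were thus higher in 3 pairs and lower in the shControl pair; the difference between derivatives was not tested.

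SLC1A3, the glial glutamate and aspartate transporter, had 514, 612 and 874 CPM with H2O2 in the same 3 derivatives, against 596, 727 and 1105 CPM untreated (-0.27 ± 0.07). In shControl cells it ran the other way, with 833 CPM with H2O2 and 804 CPM untreated. TMPRSS9, a membrane serine protease gene of low level, had 5.41, 3.89, 3.82 and 6.19 CPM with H2O2 in all 4 derivatives, against 3.27, 2.28, 0.944 and 1.96 CPM untreated, without overlap (1.39 ± 0.34 without the shControl pair). Its untreated shUTX library held 5 counts, and the gene overlaps the far more abundant TIMM13 on the other strand. DESeq2 on all 8 libraries called 40 of 10056 entries (0.398%), of which 2 are readable: CLIC4P1 (adjusted p = 0.0402) and CPLANE1 (adjusted p = 0.0494), both higher.

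Without a filter on low counts, 28 readable entries passed an adjusted p of 0.05 by edgeR, 8 higher and 20 lower with H2O2, beside 551 of all 24049 entries tested (2.29%). The higher ones were CPLANE1, CLIC4P1, PDZD2, ADAMTS12, SEMA5A, TRIO, TMPRSS9 and GPX4, whose log2 change was 0.35 (adjusted p = 0.000397). Mitochondrial genes among the lower ones were MRPL54 (-0.49, adjusted p = 0.00016), NDUFB6, NDUFS6, MICOS13, TIMM13 and MT-ND6. Ribosomal protein genes RPS6, RPS15, RPL36 and RPLP2 were also lower, at -0.27 to -0.21, as were VCP (-0.24, adjusted p = 0.00851), PSMD13 and OAZ1, which encodes the antizyme that sends ornithine decarboxylase to the proteasome. In the fit with the filter none of these 28 passed, and their log2 changes differed little between the fits; why the calls differed was not tested.

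Shared changes were closest within 2 pairs of derivatives. Across the 368 coding genes the log2 changes of shControl and shMLL1 cells had a Pearson r of 0.56 (0.45 after removal of the length trend), and those of shUTX and shNRF2 cells 0.46. The other 4 pairings lay between 0.11 (shControl with shNRF2) and 0.33 (shMLL1 with shUTX). With the trends in length and GC content both removed, r was 0.46 for shControl with shMLL1 and 0.42 for shUTX with shNRF2. The other 4 then lay between 0.29 (shControl with shNRF2) and 0.33 (shMLL1 with shUTX), so the gap was narrower. No library is shared between derivatives, and these are descriptions across genes.

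A pair of promoters is printed to show the antioxidant response element motif to which NRF2 binds, since they belong to one of the genes named as higher and one named as lower. They were taken from RefSeq on GRCh38.p14 and run from 250 bases before to 50 bases after the start of transcription, written 5′ to 3′ in the direction of the gene, with the motif TGACNNNGC in capitals. In ADAMTS12 (chr5:33891941-33892240, minus strand) the motif lies on the gene's strand at +29 to +37, and in NDUFS6 (chr5:1801157-1801456, plus strand) on the other strand at -15 to -7.
ADAMTS12: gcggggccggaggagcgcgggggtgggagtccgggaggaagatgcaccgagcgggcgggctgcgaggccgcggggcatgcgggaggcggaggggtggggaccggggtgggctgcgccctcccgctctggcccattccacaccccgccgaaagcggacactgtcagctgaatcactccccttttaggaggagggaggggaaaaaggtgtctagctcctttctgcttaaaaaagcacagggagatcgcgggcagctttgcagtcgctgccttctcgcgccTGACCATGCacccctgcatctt
NDUFS6: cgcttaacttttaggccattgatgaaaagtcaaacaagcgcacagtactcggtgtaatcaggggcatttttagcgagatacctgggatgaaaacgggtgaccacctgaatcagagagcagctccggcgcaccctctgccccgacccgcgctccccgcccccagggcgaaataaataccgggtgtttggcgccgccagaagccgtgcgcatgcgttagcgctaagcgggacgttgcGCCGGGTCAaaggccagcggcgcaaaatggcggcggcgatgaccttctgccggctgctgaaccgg
The motif, searched on both strands, was present in 1 of 10 promoters of the genes named as higher and in 4 of 16 promoters of those named as lower. It was present in 15.3% of the promoters of readable tested genes (69 of 451) and in 13.3% of all promoters in the table (4687 of 35116). None of the 3 GPX4 promoters held it, and among the redox genes 2 of 12 promoters did, those of ALKBH7 and SELENOP. A match is only a run of letters in this window and does not show binding.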

How the data were processed

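The values are whole-number read counts per gene, deposited by the authors as 1 table for H2O2 and untreated cells. Per the submitters' processing notes the tools were Trimmomatic 0.39, HISAT2 2.2.1, SAMtools 1.12 and HTSeq 0.11.1 with GRCh38, while the sources used here do not give their settings, the annotation or the use of strand. Gene positions, types and transcript lengths were taken from GENCODE 29. Totals of 5388335 to 7342021 counts per library set the depth, and a count of 0 allows up to 3 counts.

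A filter kept entries that reached 1 CPM in 4 or more of the 8 libraries, and these were tested with edgeR 4.0.16 (R 4.3.3, TMM scaling, two-sided quasi-likelihood test, hairpin as block, 3 residual degrees of freedom, Benjamini-Hochberg threshold 0.05). The SE is the log2 change divided by the square root of F, and log2 changes within a derivative used a pseudocount of 1 CPM. The pairing comes from the labels, since both libraries of a pair are the same derivative. Named genes were the 12 higher and the 12 lower ones with the smallest p among readable entries that averaged 5 CPM or more and moved one way in all 4 derivatives. The 15 gene lists hold 145 genes, of which 140 were tested, and up to 4 examples per list were named by smallest p. Genes and lists were chosen with earlier results of these data known. Alternatives were RLE scaling, no count filter or one at 5 CPM, DESeq2 1.42.0, limma-voom (limma 3.58.1), all 12 libraries, no block, each pair left out, and removal of smooth trends with transcript length and with GC content. These trends were fitted on readable coding genes and removed from readable entries only. The removal with GC content, and a removal of the length trend that kept the overall level of readable genes, were chosen after seeing the data.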

Additional observations from a re-analysis of the deposited data

Results flagged for a closer look

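In 2 of the 24 named genes a single derivative stood apart from the other 3 in its log2 change, a gap that chance gives in about 1 of 20 groups of 4. For SEMA5A the shNRF2 pair had a log2 change of 0.0895, against 0.464 to 0.523 in the other 3 derivatives. For ABCA7 the shControl pair had 0.102, against 0.284 to 0.293 in the other 3. Whether these differences between derivatives exceed replicate error was not tested, since each derivative has 1 library per treatment.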

How the results depend on the processing

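No entry was called under RLE scaling, a filter at 5 CPM, limma-voom, all 12 libraries, no replicate block or removal of the length trend (alone, with GC content, or with the level kept). The trends were removed from readable entries only, so the 0 calls among other entries do not test their removal there. Calls appeared without a count filter (551 of all entries, 28 of the readable ones) and with DESeq2 (40 and 2). They numbered 0 to 165 of all entries and 0 to 12 of the readable ones when each pair was left out, the highest both without shControl. The 84 readable entries at an unadjusted p under 0.05 became 133 without a filter, 53 with DESeq2 and 15 with no replicate block, and 32 to 84 when each pair was left out, the lowest without shMLL1. Spearman's rho with transcript length was 0.41, and it was -0.0026 after removal of the length trend, 0.00046 with the level kept and 0.0081 after removal of length and GC trends. It ranged from 0.19 (without shControl) to 0.49 when each pair was left out. The difference in mitochondrial share reversed to -0.162 percentage points without the shControl pair and to -0.0625 without the shUTX pair, and ranged from -0.162 to 0.345. In 23 settings of single named genes an adjusted p fell below 0.05, and no direction reversed, which the choice of genes with a shared direction made likely. The causes were not tested. With 4 pairs and a median SE of 0.109 on the log2 scale, small differences were not detectable, and a gene at 3 counts or fewer cannot be told from 0.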
